A study of Homo sapiens with 8 samples.

Results

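The genes described here are 33 transcriptional targets of p53 other than CDKN1A (p21). They were chosen by symbol from a written list, not by a threshold on the values, but with earlier results of these data known. Shares over all tested genes are therefore set beside their counts as a description, not as a test. The symbols were looked up in a table of RNA-seq read counts that names 26364 genes. All 33 had a row, and 31 passed the filter on low counts that left 14201 genes for testing. SPATA18 (1 read in 1 library) and TP53I11 (0 reads in all 8 libraries) did not pass. A count of 0 allowed a level of up to 0.16 to 0.189 CPM, the read counts scaled to a common library size, depending on the library. The RNA came from LN229, a human glioblastoma cell line that the study describes as MGMT-deficient, mismatch repair-proficient and p53/p21-proficient. The cells were stable G418-selected clones carrying a pcDNA3.1 plasmid that encodes Survivin (BIRC5) fused to eGFP. Clone D6 (Surv-GFP) carried Survivin with a functional nuclear export sequence, so that the fusion protein was mainly cytoplasmic. Clone L2 (SurvNESmut-GFP) carried Survivin with a mutated export sequence, which traps it in the nucleus. Both clones were sampled without treatment and after 48 h in 50 µM temozolomide (TMZ), a DNA-methylating drug, and each of the 4 groups held 2 libraries, a and b. Each form of Survivin was represented by 1 clone, so a difference between the forms and a difference between the clones cannot be told apart. The study describes independent biological replicates in technical duplicates, and the labels do not say which of these the letters stand for, so p-values measured the spread between letters, which may be technical.

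p53 is a transcription factor that is kept low by MDM2 in unstressed cells and is stabilised when the checkpoint kinases ATM and ATR sense DNA damage. It then binds response elements near its target genes and raises their transcription. Some products close a negative feedback loop on p53, while others arrest the cell cycle, take part in nucleotide excision repair, shift metabolism or prime cells for death. In glioma cells with active p53, TMZ is known to engage this pathway after unrepaired O6-methylguanine has passed through mismatch repair and replication.

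The libraries held 15826923 to 18861603 reads assigned to genes, and those of a group agreed closely (Pearson r of log2 CPM 0.9965 to 0.9981 across genes). The letters of TMZ-exposed SurvNESmut-GFP stood farther apart than the others, with a chi-square of 5.75 per degree of freedom against 2.2 to 2.66. VIM, NES, CD44, EGFR, OLIG2 and SOX2 were read in every library, GFAP stayed below 1 CPM, and the epithelial and endothelial markers and PTPRC and CD3E were below 1 CPM throughout, while CD68, a lysosomal protein gene, was at 11.9 to 21.4 CPM. BIRC5, whose reads may come from the transgene or the endogenous gene, stood at 1152 and 1113 CPM in untreated and 1938 and 2029 CPM in exposed Surv-GFP, and at 407 and 414 and then 262 and 253 CPM in SurvNESmut-GFP. In bulk RNA, fewer cells that express a gene and less of its RNA per cell cannot be told apart.

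The first question was which of these targets responded to TMZ in each clone. In Surv-GFP, 24 of 31 members rose and 3 fell, where 30.1% of all tested genes rose and 28.9% fell. In SurvNESmut-GFP, 19 of 31 rose and 2 fell, against 18.6% and 19.1% of all tested genes. The members had a median log2 fold change of 0.68 (Surv-GFP) and 0.32 (SurvNESmut-GFP), beside medians of 0 and 0.0035 over all tested genes. A total of 18 members rose in both clones, CCNG1 fell in both, and BTG1 and CMBL moved in opposite directions. Joint calls in both clones were not counted over all tested genes, so these numbers describe the members alone. PPM1D, TP53INP1, PERP, SERTAD1 and SUSD6 passed the test in Surv-GFP as higher and TNFAIP8 as lower, and these 6 did not pass in SurvNESmut-GFP. GLS2, TP53I3, NINJ1 and TOB1 passed in neither clone.

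**Figure D1:**
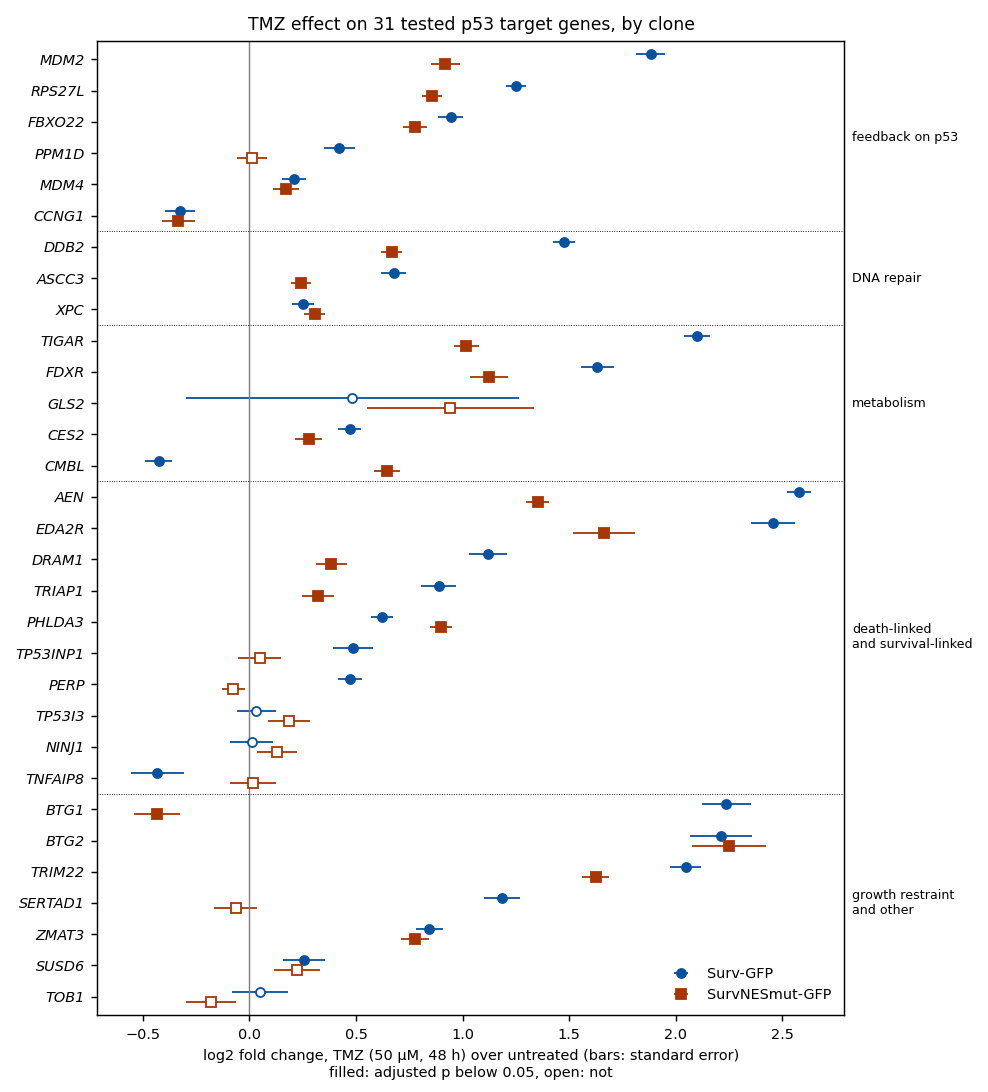
Log2 fold change of each of the 31 tested p53 target genes upon TMZ (x axis, with standard errors) in Surv-GFP (blue circles) and SurvNESmut-GFP (brown squares), grouped by role, filled where the adjusted p was below 0.05. Most blue circles lie right of 0, with AEN farthest at 2.58, and BTG1 has its circle at 2.24 and its square at -0.43.

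The second question was whether the response differed between the clones, and it was tested as the TMZ effect in SurvNESmut-GFP minus that in Surv-GFP. The difference was below 0 for 16 members and above 0 for 3, where 20.2% of all tested genes had a lower and 16.6% a higher effect in SurvNESmut-GFP. Its median over the members was -0.40 on the log2 scale, beside -0.0010 over all tested genes. Of the 18 members that rose in both clones, 11 rose less in SurvNESmut-GFP, PHLDA3 rose more, and 6 did not pass the test of the difference. The same split was not counted for all tested genes that rose in both clones, so it cannot be called particular to the members.

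Of the 6 feedback regulators of p53, 5 rose and CCNG1 fell in Surv-GFP. In SurvNESmut-GFP 4 rose, CCNG1 fell and PPM1D did not pass the test. Beside this and the role groups below, 30.1% of all tested genes rose and 28.9% fell in Surv-GFP. In SurvNESmut-GFP these shares were 18.6% and 19.1%. MDM2, the ubiquitin ligase that marks p53 for degradation, stood at 111 and 127 CPM in the untreated and 444 and 432 CPM in the exposed Surv-GFP libraries. Its level went from 190.3 and 209 to 357 and 397 CPM in SurvNESmut-GFP. The exposed libraries of each clone lay above its untreated ones, and untreated Surv-GFP was the lowest group. This was a 3.69-fold rise in Surv-GFP (log2 fold change ± standard error 1.88 ± 0.068, adjusted p = 1.08e-12) and a 1.89-fold rise in SurvNESmut-GFP (0.92 ± 0.066, adjusted p = 1.99e-08). The effects differed by -0.96 ± 0.094 (adjusted p = 9.03e-07). In the annotation of GENCODE v29, 9.62% of the exon bases of MDM2 also belong to other genes.

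MDM4, the relative of MDM2 that blocks transactivation by p53, moved far less. Its levels were 83.7 and 81.6 CPM without and 97.7 and 93.4 CPM with TMZ in Surv-GFP, and 57.2 and 63.7 CPM without and 69.8 and 66.4 CPM with TMZ in SurvNESmut-GFP. The groups did not overlap within either clone, but the rises were small (1.16-fold, 0.21 ± 0.057, adjusted p = 0.00501, and 1.13-fold, 0.17 ± 0.061, adjusted p = 0.036). Without Surv-GFP TMZ replicate a the first was 0.18 (adjusted p = 0.0561), and without SurvNESmut-GFP untreated replicate a the second was 0.095 (adjusted p = 0.344). The second was also not called without Surv-GFP untreated replicate a (adjusted p = 0.0552), without Surv-GFP untreated replicate b (adjusted p = 0.0547) or without SurvNESmut-GFP TMZ replicate a (adjusted p = 0.153), nor with DESeq2 (adjusted p = 0.125) or in a fit of the 4 libraries compared (adjusted p = 0.0776).

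PPM1D encodes the phosphatase WIP1, which removes damage-induced phosphates from p53 and its activating kinases. It was read at 32.8 and 31.6 CPM in untreated and 43.2 and 43.1 CPM in exposed Surv-GFP cells, a 1.34-fold rise (0.42 ± 0.072, adjusted p = 8.63e-05). In SurvNESmut-GFP it stood at 46.0 and 41.6 CPM without and 42.3 and 46.1 CPM with TMZ, and these overlapped (0.012 ± 0.070, adjusted p = 0.917). Untreated Surv-GFP was the single group below the others. The effects differed between the clones (log2 -0.41 ± 0.10, adjusted p = 0.00409).

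RPS27L, a ribosomal protein paralog that binds MDM2, rose from 89.6 and 88.2 to 211 and 213 CPM in Surv-GFP (2.38-fold, 1.25 ± 0.048, adjusted p = 2.07e-12). In SurvNESmut-GFP it rose from 131 and 132 to 234 and 242 CPM (1.81-fold, 0.86 ± 0.047, adjusted p = 8.9e-10). The exposed groups of both clones lay above both untreated groups, and the rise was smaller in SurvNESmut-GFP (log2 difference -0.40 ± 0.067, adjusted p = 0.000226). Whether reads of RPS27L were shared with its paralog RPS27 was not tested, as their sequences were not compared. RPS27 was looked up for this reason. Its TMZ log2 fold changes were 0.18 in Surv-GFP and 0.21 in SurvNESmut-GFP (adjusted p = 0.0162 and 0.0109). FBXO22, an F-box subunit of a ubiquitin ligase that acts on p53, ranged from 67.7 to 219 CPM over the 8 libraries and rose 1.92-fold and 1.72-fold, with no call on the difference (log2 -0.17 ± 0.082, adjusted p = 0.131) except without SurvNESmut-GFP untreated replicate a (-0.24, adjusted p = 0.0475). CCNG1, a cyclin that brings the phosphatase PP2A to MDM2, fell by 0.33 on the log2 scale in each clone (adjusted p = 0.000889 and 0.0027). Its fall in SurvNESmut-GFP was -0.18 without TMZ replicate a of that clone and -0.50 without replicate b.

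All 3 DNA repair members rose in both clones. DDB2, the sensor of helix-distorting lesions in nucleotide excision repair, rose from 92.3 and 94.3 to 263 and 256 CPM in Surv-GFP and from 173 and 181 to 275 and 288 CPM in SurvNESmut-GFP. The 4 exposed libraries were all above the 4 untreated ones, and the exposed levels of the clones lay closer together than the untreated ones. The rise was 2.78-fold in Surv-GFP (1.48 ± 0.051, adjusted p = 5.69e-13) and 1.59-fold in SurvNESmut-GFP (0.67 ± 0.049, adjusted p = 2.4e-08), and it differed between the clones (log2 -0.81 ± 0.070, adjusted p = 2.4e-07).

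The RefSeq promoter windows, which run from 250 bases before to 50 after the gene start on GRCh38.p14, were searched on both strands for the p53 response element, a pair of 10-base units with a core of 4 bases each. Windows were given for 27 of the 33 members. The full element, with exact cores and at most 2 mismatches elsewhere, was found in 2 of 27 member windows (7.41%) and in 55 of all 35116 windows (0.157%). Cores spelled CATG, any 6 bases, CATG were found in 1 member window (3.7%) and in 131 of all windows (0.373%), and these searches overlap in what they can find. A perfect single unit stood in 3 member windows (11.1%) and in 6.63% of all windows. DDB2 was the single member window with a pair of perfect units up to 13 bases apart, a search added after the first hits were seen, and 10 of all 35116 windows (0.0285%) held such a pair. The matched stretches of DDB2, AEN, TRIAP1 and GLS2 are shown because they are the member windows with a paired match. DDB2 lies at chr11:47214975-47215003 on the plus strand and has both units in capitals. AEN lies at chr15:88621301-88621330 on the plus strand, GLS2 at chr12:56488112-56488137 on the minus strand and TRIAP1 at chr12:120446335-120446361 on the minus strand, and these have the core bases in capitals.
DDB2: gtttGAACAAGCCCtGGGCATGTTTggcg
AEN: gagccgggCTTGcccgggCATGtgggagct
TRIAP1: gggggaggCATGcacggaCATGaagcg
GLS2: gccggaggCTTGctggggCATGcgct
A match describes these letters and is not evidence of p53 binding. A window without a match does not show that a gene lacks an element, since bases outside the windows were not searched. DDB2, AEN and TRIAP1 rose in both clones, and GLS2 passed the test in neither.

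ASCC3, a helicase that works with the dealkylase ALKBH3 on alkylated DNA, stood at 30.5 and 32.3 CPM in untreated and 50.4 and 49.9 CPM in exposed Surv-GFP cells. SurvNESmut-GFP held more of it throughout, with 124 and 123 CPM before and 148 and 145 CPM after exposure. Every SurvNESmut-GFP library was above every Surv-GFP library. TMZ raised it 1.60-fold (0.68 ± 0.059, adjusted p = 4.85e-08) and 1.18-fold (0.24 ± 0.047, adjusted p = 0.000712), and the effect was smaller in SurvNESmut-GFP (log2 difference -0.44 ± 0.075, adjusted p = 0.000276). XPC, which recognises lesions in nucleotide excision repair, was read at 75.3 and 78.0 CPM without and 90.8 and 91.9 CPM with TMZ in Surv-GFP, and at 82.1 and 84.8 CPM without and 101 and 106 CPM with TMZ in SurvNESmut-GFP. The exposed libraries were the higher ones in both clones. Its rises of 1.19-fold (0.25 ± 0.051, adjusted p = 0.00047) and 1.24-fold (0.31 ± 0.051, adjusted p = 0.000176) gave no call on the difference (0.052 ± 0.072, adjusted p = 0.618). Other genes share 24.9% of the exon bases of XPC.

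Among the metabolic targets, 3 of 5 rose and 1 fell in Surv-GFP and 4 of 5 rose in SurvNESmut-GFP. TIGAR, a fructose bisphosphatase that lowers flux through glycolysis, went from 29.3 and 30.7 to 129.9 and 128 CPM in Surv-GFP and from 41.3 and 45.3 to 85.5 and 89.9 CPM in SurvNESmut-GFP. Untreated Surv-GFP was the lowest and exposed Surv-GFP the highest of the 4 groups, with no overlap. The rise was 4.29-fold (2.10 ± 0.061, adjusted p = 6.27e-14) against 2.02-fold (1.02 ± 0.060, adjusted p = 1.98e-09), with a log2 difference of -1.08 ± 0.086 (adjusted p = 8.94e-08). A share of 45.3% of the exon bases of TIGAR belongs to another annotated gene as well.

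FDXR, the mitochondrial ferredoxin reductase that feeds electrons to cytochromes P450, rose from 34.8 and 31.0 to 101 and 103 CPM in Surv-GFP. It rose from 20.5 and 25.0 to 47.2 and 51.9 CPM in SurvNESmut-GFP, so that SurvNESmut-GFP was lower than Surv-GFP in both conditions. The rises were 3.10-fold (1.63 ± 0.078, adjusted p = 2.97e-11) and 2.18-fold (1.12 ± 0.089, adjusted p = 5.51e-08) and differed (log2 -0.51 ± 0.12, adjusted p = 0.00315). CMBL, a cytosolic hydrolase that activates ester prodrugs, moved in opposite directions. It fell from 52.3 and 49.2 to 36.6 and 38.9 CPM in Surv-GFP (-0.43 ± 0.063, adjusted p = 2.12e-05) and rose from 43.1 and 41.6 to 65.9 and 66.6 CPM in SurvNESmut-GFP (0.65 ± 0.061, adjusted p = 4.67e-07). Its exposed libraries were the lowest of all 8 in Surv-GFP and the highest in SurvNESmut-GFP. The log2 difference was 1.07 ± 0.088 (adjusted p = 1.24e-07).

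CES2, a carboxylesterase that hydrolyses ester drugs, ranged from 42.3 to 106 CPM and rose 1.39-fold and 1.21-fold, with no call on the difference (-0.19 ± 0.083, adjusted p = 0.0795), and 14.8% of its exon bases belong to other genes too. GLS2, the liver-type glutaminase of mitochondria, was near the detection limit at 0.110 to 1.13 CPM. Its TMZ effects of 0.48 ± 0.78 and 0.94 ± 0.39 were not called, and other genes share 80.3% of its exon bases.

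**Figure D2:**
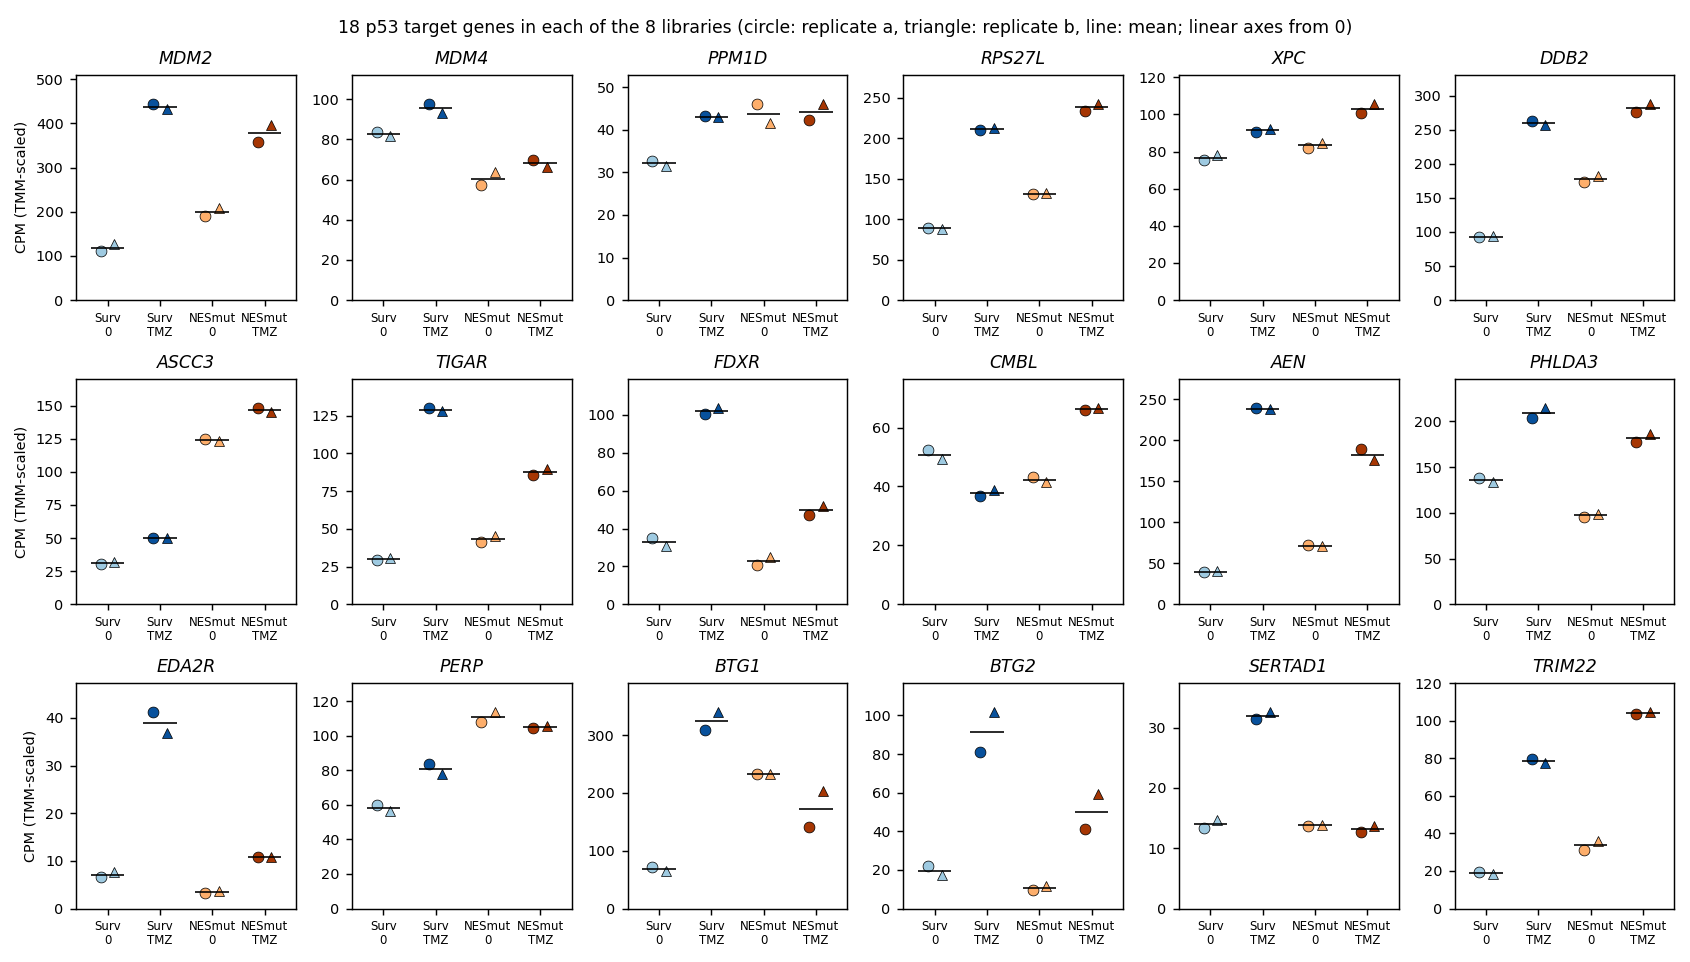
Levels of 18 members in each of the 8 libraries (y axis, CPM on linear axes from 0, circles for replicate a, triangles for replicate b, lines for group means) in untreated and TMZ-exposed Surv-GFP and SurvNESmut-GFP (NESmut). BTG1 rises in Surv-GFP while its exposed SurvNESmut-GFP libraries stay below the untreated ones, and the CMBL panel shows the opposite arrangement.

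Of the 12 death-linked and survival-linked members, 10 were tested, and 7 rose and 1 fell in Surv-GFP while 5 rose in SurvNESmut-GFP. AEN, a nuclease that degrades DNA during apoptosis, had the largest TMZ effect of the tested members in Surv-GFP. It went from 39.1 and 40.8 to 239 and 238 CPM there and from 72.3 and 70.7 to 189 and 176 CPM in SurvNESmut-GFP. All 4 groups were apart, with untreated Surv-GFP lowest and exposed Surv-GFP highest. The rises were 5.97-fold (2.58 ± 0.056, adjusted p = 1.66e-15) and 2.55-fold (1.35 ± 0.053, adjusted p = 1.4e-11), and the log2 difference was -1.22 ± 0.077 (adjusted p = 5.88e-09).

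EDA2R, a receptor of the tumour necrosis factor family, rose from 6.61 and 7.62 to 41.2 and 36.9 CPM in Surv-GFP and from 3.20 and 3.61 to 10.9 and 10.7 CPM in SurvNESmut-GFP. SurvNESmut-GFP was lower in both conditions. TMZ raised it 5.49-fold (2.46 ± 0.10, adjusted p = 6.53e-12) and 3.17-fold (1.66 ± 0.15, adjusted p = 2.06e-07), with a smaller effect in SurvNESmut-GFP (log2 difference -0.79 ± 0.19, adjusted p = 0.00399). PHLDA3, which keeps the kinase AKT off the membrane, stood at 138 and 134 CPM in untreated and 203 and 214 CPM in exposed Surv-GFP cells. In SurvNESmut-GFP it went from 95.9 and 99.1 to 177 and 187 CPM. Untreated SurvNESmut-GFP was the lowest group, and the exposed groups lay above both untreated ones. Its rise was 1.54-fold (0.62 ± 0.051, adjusted p = 2.32e-08) in Surv-GFP and 1.86-fold (0.90 ± 0.052, adjusted p = 1.83e-09) in SurvNESmut-GFP, larger in the latter (log2 difference 0.28 ± 0.073, adjusted p = 0.00685). A further annotated gene shares 22.2% of the exon bases of PHLDA3.

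PERP, a tetraspan membrane protein of cell junctions, rose from 59.9 and 56.5 to 83.8 and 77.6 CPM in Surv-GFP (1.39-fold, 0.47 ± 0.058, adjusted p = 2.63e-06). The SurvNESmut-GFP libraries were at 108 and 114 CPM without and 105 and 106 CPM with TMZ (-0.075 ± 0.054, adjusted p = 0.297). All 4 SurvNESmut-GFP libraries lay above the 4 Surv-GFP libraries, and the effects differed by -0.55 ± 0.079 (adjusted p = 5.12e-05).

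DRAM1, a lysosomal membrane protein that promotes autophagy, ranged from 15.2 to 74.4 CPM and rose 2.17-fold in Surv-GFP and 1.31-fold in SurvNESmut-GFP, with a log2 difference of -0.73 ± 0.12 (adjusted p = 0.000124). TRIAP1, a mitochondrial protein that restrains apoptosis, ranged from 22.7 to 48.3 CPM and rose 1.85-fold and 1.25-fold, with a difference of -0.57 ± 0.11 (adjusted p = 0.000846). Its rise in SurvNESmut-GFP went from 0.32 to 0.20 (adjusted p = 0.0754) without SurvNESmut-GFP untreated replicate a. TP53INP1, a stress protein linked to autophagy and death, rose 1.40-fold in Surv-GFP (0.49 ± 0.095, adjusted p = 0.000326), and its levels overlapped in SurvNESmut-GFP (0.047 ± 0.10, adjusted p = 0.747). The difference for TP53INP1 (-0.44 ± 0.14, adjusted p = 0.0209) was not called with DESeq2 (adjusted p = 0.0686), without Surv-GFP untreated replicate a (adjusted p = 0.0812), without Surv-GFP TMZ replicate a (0.101), without SurvNESmut-GFP untreated replicate b (0.094) or without SurvNESmut-GFP TMZ replicate a (0.074).

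TNFAIP8, which holds back caspases, fell 1.35-fold in Surv-GFP (-0.43 ± 0.12, adjusted p = 0.00623) and had a log2 fold change of 0.016 ± 0.11 (adjusted p = 0.928) in SurvNESmut-GFP. Its difference of 0.45 (adjusted p = 0.0419) was not called with DESeq2 (adjusted p = 0.0985). Leaving out any library other than SurvNESmut-GFP TMZ replicate a also ended the call. The adjusted p was 0.114 and 0.0832 without Surv-GFP untreated replicates a and b, 0.124 and 0.0523 without Surv-GFP TMZ replicates a and b, and 0.0647 and 0.138 without SurvNESmut-GFP untreated replicates a and b. Without SurvNESmut-GFP TMZ replicate b the difference was 0.26 (adjusted p = 0.193). TP53I3, a quinone oxidoreductase linked to oxidative stress, ranged from 21.3 to 30.1 CPM, and NINJ1, which ruptures the plasma membrane of dying cells, from 18.8 to 31.7 CPM. Neither passed the test upon TMZ in either clone, with log2 fold changes of 0.032 and 0.19 for TP53I3 and 0.011 and 0.13 for NINJ1. Without SurvNESmut-GFP TMZ replicate a, TP53I3 was called in SurvNESmut-GFP (0.31, adjusted p = 0.0231).

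In the group of growth restraint and other targets, 6 of 7 rose in Surv-GFP, while 3 rose and 1 fell in SurvNESmut-GFP. BTG1, an antiproliferative protein that binds the deadenylase complex on mRNA, showed the largest difference between the clones of all tested members. It rose from 72.1 and 65.1 to 308 and 339 CPM in Surv-GFP (4.72-fold, 2.24 ± 0.12, adjusted p = 8.17e-11). In SurvNESmut-GFP it went the other way, from 232 and 232 to 140.3 and 203 CPM (1.35-fold lower, -0.43 ± 0.11, adjusted p = 0.00496). Both exposed SurvNESmut-GFP values lay below the untreated ones, and the exposed letters of that clone were far apart. The log2 difference was -2.67 ± 0.16 (adjusted p = 3.4e-09) and was called under each of the 16 alternatives run. The fall in SurvNESmut-GFP was not called with DESeq2 (adjusted p = 0.0811) or with a robust prior (adjusted p = 0.156). It was -0.19 without SurvNESmut-GFP TMZ replicate a and -0.72 without replicate b. Other genes share 9.68% of the exon bases of BTG1.

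BTG2, the close relative of BTG1, rose in both clones instead. It went from 21.8 and 17.5 to 81.0 and 102 CPM in Surv-GFP and from 9.60 and 11.4 to 41.0 and 59.3 CPM in SurvNESmut-GFP. Exposed libraries were above untreated ones in each clone, and SurvNESmut-GFP was lower at either condition. The 4.63-fold (2.21 ± 0.15, adjusted p = 1.79e-09) and 4.75-fold (2.25 ± 0.17, adjusted p = 4.25e-08) rises gave a log2 difference of 0.037 ± 0.24 (adjusted p = 0.925). SERTAD1, a regulator of the kinase CDK4, rose from 13.4 and 14.7 to 31.4 and 32.5 CPM in Surv-GFP (2.27-fold, 1.18 ± 0.086, adjusted p = 5.51e-09). SurvNESmut-GFP held 13.7 and 13.8 CPM without and 12.7 and 13.6 CPM with TMZ (-0.065 ± 0.10, adjusted p = 0.644). Exposed Surv-GFP was the single group above the others, and the effects differed by -1.25 ± 0.13 (adjusted p = 2.05e-06).

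TRIM22, an interferon-inducible protein of the tripartite motif family, rose from 19.5 and 18.6 to 79.8 and 77.4 CPM in Surv-GFP and from 31.4 and 36.1 to 104 and 105 CPM in SurvNESmut-GFP. All 4 groups were apart, and exposed SurvNESmut-GFP was highest. The rise was 4.13-fold (2.05 ± 0.071, adjusted p = 6.3e-13) in Surv-GFP and 3.08-fold (1.62 ± 0.064, adjusted p = 1.63e-11) in SurvNESmut-GFP, with a log2 difference of -0.42 ± 0.10 (adjusted p = 0.00292). ZMAT3, an RNA-binding regulator of splicing, ranged from 91.7 to 261 CPM and rose 1.80-fold and 1.71-fold, with a difference of -0.066 ± 0.090 (adjusted p = 0.611). SUSD6, a membrane protein also named DRAGO, ranged from 15.9 to 26.7 CPM and passed the test in Surv-GFP (0.26 ± 0.10, adjusted p = 0.0353) but not in SurvNESmut-GFP (0.22 ± 0.11, adjusted p = 0.121), and the difference was -0.035 ± 0.15 (adjusted p = 0.88). Its call in Surv-GFP was lost with DESeq2 (adjusted p = 0.144), with RLE size factors (adjusted p = 0.0522), with a filter of 1 CPM (adjusted p = 0.0714) and without Surv-GFP TMZ replicate b (log2 fold change 0.12, adjusted p = 0.43). It was also lost without Surv-GFP untreated replicate a (adjusted p = 0.0537) and without Surv-GFP untreated replicate b (adjusted p = 0.187). Without SurvNESmut-GFP TMZ replicate a, SUSD6 was called in SurvNESmut-GFP (0.35, adjusted p = 0.0218). TOB1, of the same family as BTG1 and BTG2, ranged from 20.4 to 40.2 CPM and passed in neither clone (0.052 and -0.18), and 11.2% of its exon bases are shared. Without SurvNESmut-GFP TMZ replicate b its TMZ effect in that clone was -0.46 (adjusted p = 0.000197) and its difference -0.51 (adjusted p = 0.00153).

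**Figure D3:**
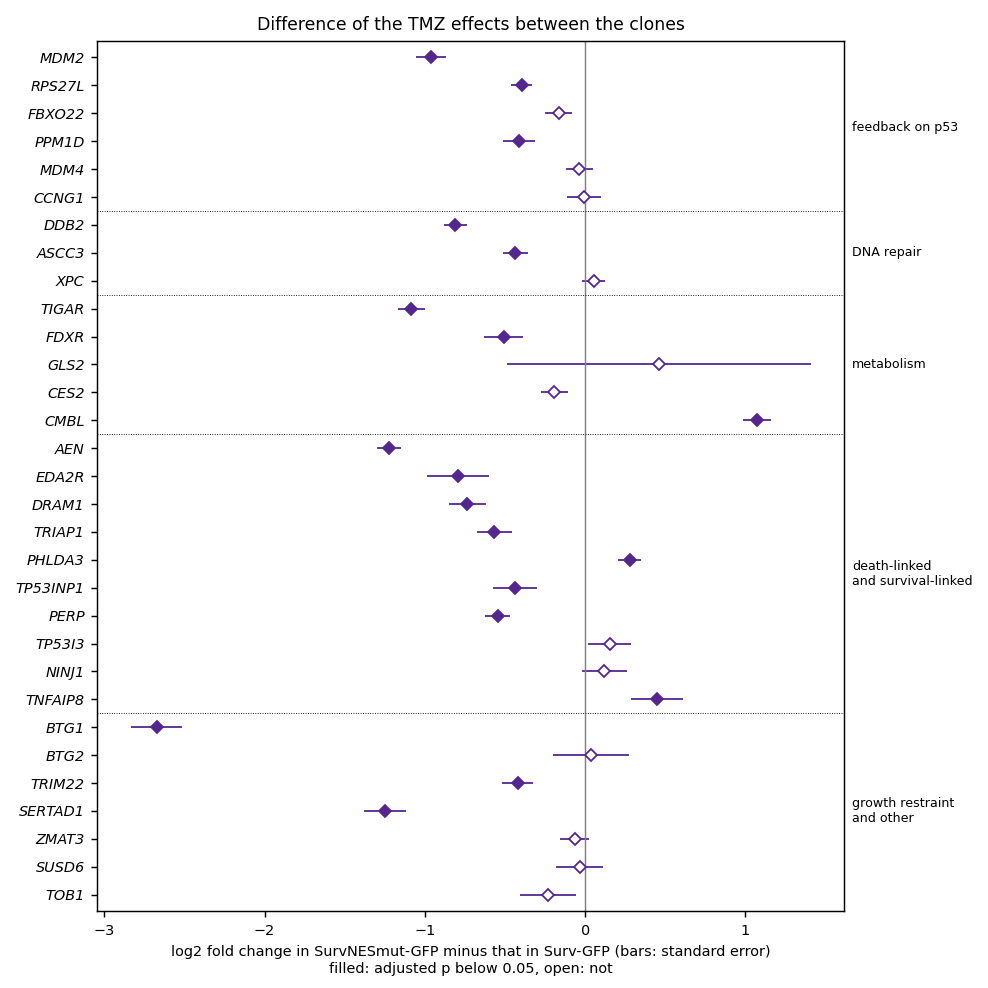
TMZ log2 fold change in SurvNESmut-GFP minus that in Surv-GFP (x axis, with standard errors) for the 31 tested members by role, filled where the adjusted p was below 0.05. Filled points left of 0 are 16, with BTG1 farthest at -2.67, and filled points right of 0 are CMBL, TNFAIP8 and PHLDA3.

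The clones were also compared directly at each condition, as SurvNESmut-GFP over Surv-GFP. These comparisons use the same libraries as the TMZ effects and are not independent of them. Without TMZ, 18 members were higher and 11 lower in SurvNESmut-GFP, where 34.7% of all tested genes were higher and 29.4% lower. With TMZ, 13 were higher and 15 lower, against 34.5% and 34.7%. The median over the members was 0.38 without and -0.20 with TMZ, beside 0.034 and -0.00053 over all tested genes.

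MDM2, TIGAR, AEN and BTG1 were higher in SurvNESmut-GFP without TMZ and lower in it with TMZ. The share of all tested genes that switched in this way was not counted. For MDM2 the log2 difference was 0.75 without and -0.22 with TMZ (adjusted p = 7.09e-08 and 0.00713), the latter -0.33 without SurvNESmut-GFP TMZ replicate b. TIGAR went from 0.53 to -0.56 (adjusted p = 3.04e-06 and 1.28e-07). AEN had 0.84 and -0.38 (adjusted p = 2.59e-09 and 3e-06). In these 4 genes, untreated Surv-GFP was the lowest group and exposed Surv-GFP the highest. BTG1 changed most, from 1.76 to -0.92 (adjusted p = 1.25e-09 and 1.27e-06). CMBL took the reverse course, from -0.26 to 0.81 (adjusted p = 0.00147 and 6.31e-09).

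Most tested members were called in the same direction between the clones at both conditions, and those named here are examples. The share of all tested genes with such calls was not counted. ASCC3 was 3.95-fold and 2.92-fold higher in SurvNESmut-GFP without and with TMZ, and DRAM1 3.28-fold and 1.97-fold higher. CCNG1 was 2.69-fold and 2.71-fold lower, and EDA2R 2.09-fold and 3.62-fold lower. Each of these 8 values passed the test, with adjusted p of at most 1.61e-05. GLS2 was 3.87-fold and 5.32-fold higher on few reads, and the first of these was not called with DESeq2 (adjusted p = 0.0661), without Surv-GFP untreated replicate b (0.0755) or without SurvNESmut-GFP untreated replicate b (0.144). The small differences of DDB2 and XPC with TMZ (0.12 and 0.17), of RPS27L with TMZ (0.17) and of XPC without TMZ (0.12) were near the limit of what these libraries could call. The value of DDB2 with TMZ and that of XPC without TMZ were not called when any 1 of the 8 libraries was left out (adjusted p from 0.0523 to 0.417 and from 0.0694 to 0.236). They were not called with RLE size factors (adjusted p = 0.0573 and 0.114) or DESeq2 (adjusted p = 0.109 and 0.277) either. Without SurvNESmut-GFP TMZ replicate b, those with TMZ were 0.050 for DDB2 (adjusted p = 0.417), 0.11 for XPC (0.116) and 0.11 for RPS27L (0.0677), and that of TOB1 went from 0.56 to 0.25. Without Surv-GFP TMZ replicate a, XPC (0.13, adjusted p = 0.103) and RPS27L (0.13, adjusted p = 0.0839) were not called with TMZ either. The difference of NINJ1 without TMZ went from 0.38 to 0.24 (adjusted p = 0.0732) without Surv-GFP untreated replicate b. Without SurvNESmut-GFP untreated replicate a, the differences of SUSD6 (adjusted p = 0.0608) and TNFAIP8 (adjusted p = 0.0632) without TMZ were not called, and that of SUSD6 was not called without Surv-GFP untreated replicate a (adjusted p = 0.0704). With TMZ, TRIAP1 was called higher in SurvNESmut-GFP without replicate a or b of its untreated group (adjusted p = 0.037 and 0.0381). TP53I3 was called lower there without Surv-GFP TMZ replicate a (adjusted p = 0.0132) or SurvNESmut-GFP TMZ replicate b (adjusted p = 0.00236), and with no filter on low counts (adjusted p = 0.0351).

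**Figure D4:**
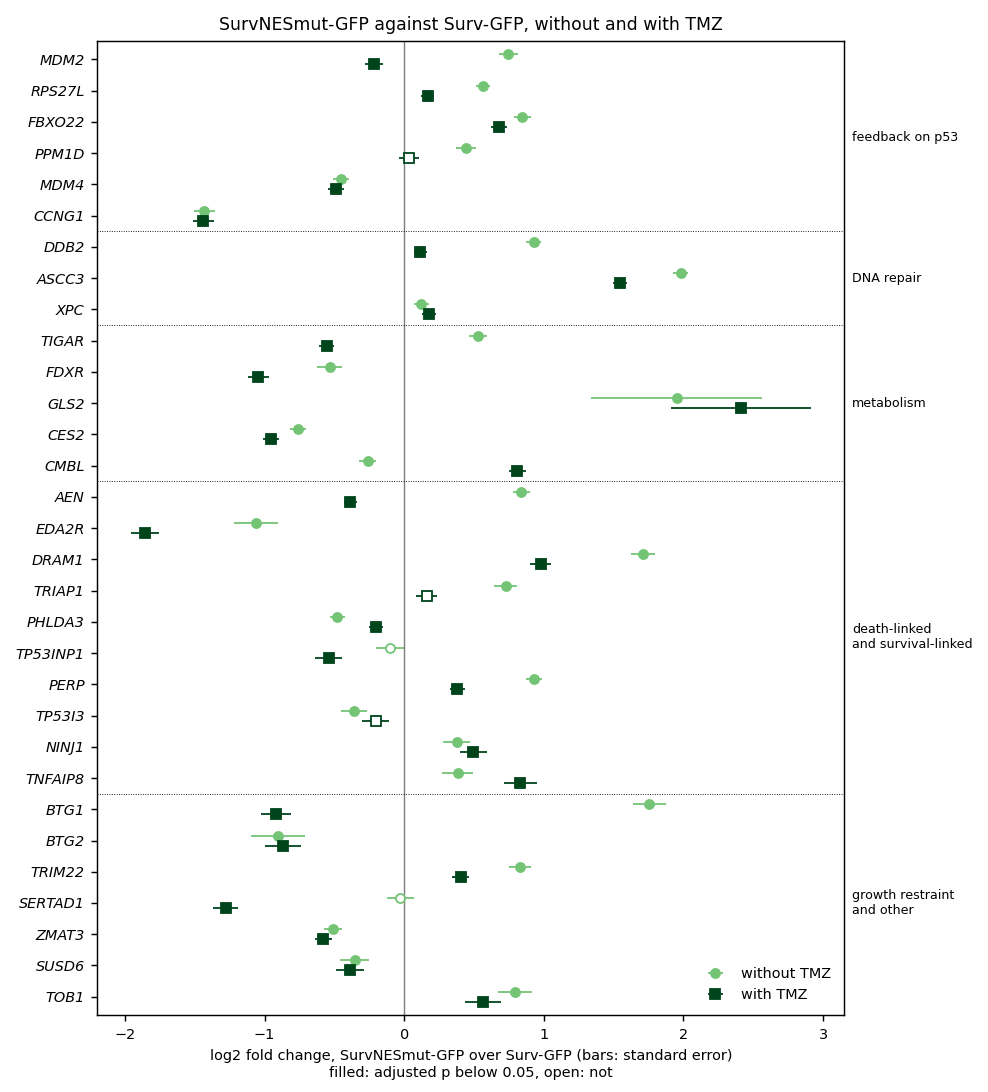
Log2 fold change of SurvNESmut-GFP over Surv-GFP (x axis, with standard errors) for the 31 tested members without TMZ (light circles) and with TMZ (dark squares), filled where the adjusted p was below 0.05. MDM2, TIGAR, AEN and BTG1 lie right of 0 without TMZ and left of 0 with it.

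CDKN1A itself, the gene of the cell cycle inhibitor p21, stood at 86.6 and 77.3 CPM in untreated and 908 and 975 CPM in exposed Surv-GFP cells. In SurvNESmut-GFP it went from 117 and 119 to 429 and 492 CPM. Its order of groups was that of MDM2, with untreated Surv-GFP lowest and exposed Surv-GFP highest. The rise was 11.5-fold (3.52 ± 0.073, adjusted p = 1.02e-15) in Surv-GFP and 3.89-fold (1.96 ± 0.069, adjusted p = 4.23e-12) in SurvNESmut-GFP, with a log2 difference of -1.56 ± 0.10 (adjusted p = 5.06e-09).

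A list of 32 other p53 targets, CDKN1A included, had 27 tested genes. Of these, 20 rose and 4 fell in Surv-GFP (74.1% and 14.8%), beside 30.1% and 28.9% of all tested genes. In SurvNESmut-GFP 17 rose and 4 fell (63% and 14.8%), beside 18.6% and 19.1%. The median log2 fold changes were 1.498 and 0.78. The TMZ effect was smaller in SurvNESmut-GFP for 14 and larger for 3 (51.9% and 11.1%), beside 20.2% and 16.6% of all tested genes. Besides CDKN1A, the smallest p-values among genes that rose belonged to GDF15, a secreted stress cytokine (92.2-fold in Surv-GFP and 6.39-fold in SurvNESmut-GFP), GADD45A, a damage-induced growth arrest protein (14.1-fold and 2.89-fold), SESN2, a sestrin that restrains mTORC1 (7.07-fold and 4.08-fold), and RRM2B, a ribonucleotide reductase subunit (4.83-fold and 2.77-fold). Among those that fell in Surv-GFP, PCNA, the sliding clamp of replication, was 1.89-fold lower there and 1.27-fold lower in SurvNESmut-GFP. APAF1, the scaffold of the apoptosome, was 1.60-fold and 1.34-fold lower. RPRM, a p53-induced inhibitor of the G2 to M transition, had the smallest p among those that fell in SurvNESmut-GFP, with 111 and 104 reads in the untreated and 18 and 24 in the exposed libraries (4.61-fold lower, -2.20 ± 0.24, adjusted p = 3.23e-06), and at most 1 read in each Surv-GFP library. POLH, a translesion polymerase, fell 1.56-fold in Surv-GFP and had a log2 fold change of 0.049 ± 0.064 (adjusted p = 0.586) in SurvNESmut-GFP.

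**Figure D5:**
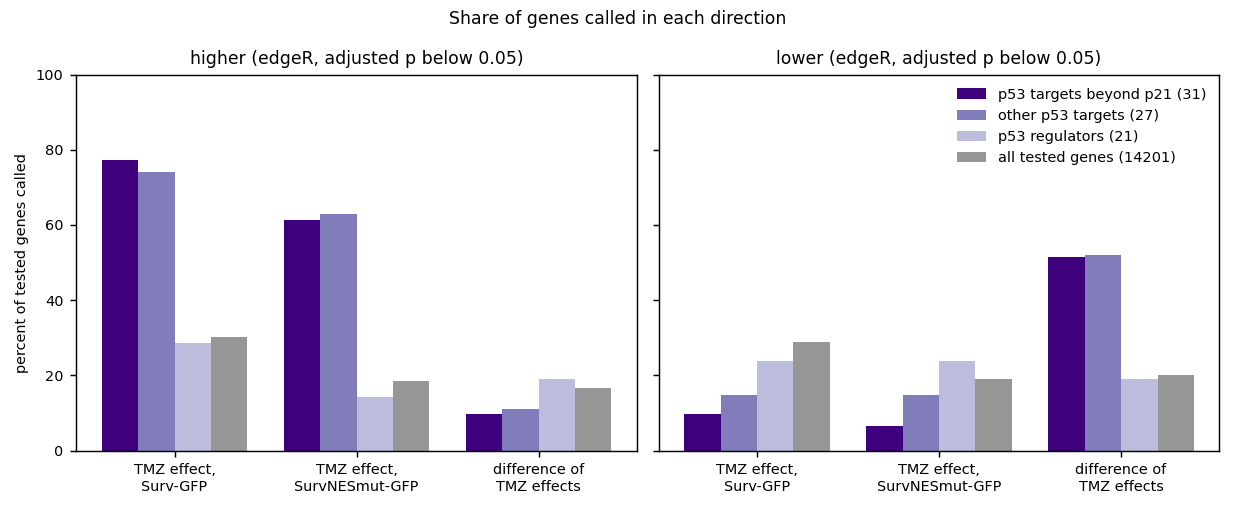
Percent of tested genes called higher (left) and lower (right) upon TMZ in Surv-GFP and SurvNESmut-GFP and for the difference of these effects, for the 31 members, 27 other p53 targets, 21 p53 regulators and all 14201 tested genes. The bars of the members stand at 77.4%, 61.3% and 9.68% on the left and at 9.68%, 6.45% and 51.6% on the right.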

How the data were processed

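RNA of 2 LN229 clones, untreated or exposed to TMZ, was sequenced on an Illumina machine, and the labels put the 8 libraries into 4 groups of 2. The values used are raw read counts for each gene symbol, as deposited by the authors without normalization, and the columns were matched to libraries by their codes. The submitters' processing notes name STAR 2.5.0b, Cufflinks 2.2.1 and edgeR without their roles. Neither the counting program and its use of strand nor the genome build and annotation is given in the sources used here, so positions are printed for the RefSeq promoter matches alone, on the RefSeq build, and overlapping genes may share reads. The 2 rows that name no gene (11.2 to 14.3% and 1.19 to 1.28% of reads) were left out. The 5 deposited tables of the authors' own comparisons list, per gene, a log2 fold change, a mean log2 CPM, an F score, a p-value and an FDR from edgeR, and none of these values was used.

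Counts were fitted in R 4.3.3 with edgeR 4.0.16 (TMM scaling, filterByExpr, 4 group means over all 8 libraries, two-sided quasi-likelihood F test of the legacy method). P-values were adjusted by Benjamini-Hochberg over 14201 genes in each of 5 comparisons, with a threshold of 0.05. CPM use TMM-scaled library sizes. Standard errors were not fitted but derived, as the absolute log2 fold change divided by the square root of the F value. A count of 0 allows up to 3 counts, which covers counting error only, as no molecular identifiers are given. Alternatives were RLE or plain library sizes, other filters, DESeq2 1.42.0, other quasi-likelihood settings, a block on the letter, fits of the 4 libraries compared and leaving out each library. The scripts were tested on simulated data. Promoter sequences are from RefSeq, and shared exon bases were counted in GENCODE v29 on either strand.

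The members, their role groups and the other lists were chosen with earlier results of these data known. All members are accounted for. Full values are given for MDM2, MDM4 and PPM1D, for the 2 members of each role group with the smallest p in each TMZ comparison and their difference, and for members called in opposite directions. Of the other lists, at most 3 genes per direction and clone are named. A gene that the rule names is not reported here.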

Additional observations from a re-analysis of the deposited data

Results flagged for a closer look

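For 19 members the test of the difference itself (edgeR, adjusted p below 0.05) found unequal TMZ effects in the clones. By the same test, 20.2% of all tested genes had a lower and 16.6% a higher effect in SurvNESmut-GFP. Each member value below is the log2 fold change upon TMZ in SurvNESmut-GFP minus that in Surv-GFP. Among the feedback regulators the difference was -0.96 for MDM2, -0.41 for PPM1D and -0.40 for RPS27L. Among the repair genes it was -0.81 for DDB2 and -0.44 for ASCC3. The metabolic genes had -1.08 for TIGAR, -0.51 for FDXR and 1.07 for CMBL. Of the death-linked and survival-linked genes, the difference was -1.22 for AEN, -0.79 for EDA2R, -0.73 for DRAM1, -0.57 for TRIAP1, -0.55 for PERP, -0.44 for TP53INP1, 0.28 for PHLDA3 and 0.45 for TNFAIP8. In the remaining group it was -2.67 for BTG1, -1.25 for SERTAD1 and -0.42 for TRIM22. The untreated level of MDM2, PPM1D, RPS27L, DDB2, ASCC3, TIGAR, AEN, PERP, DRAM1, TRIAP1, BTG1 and TRIM22 was higher in SurvNESmut-GFP, that of FDXR and EDA2R was lower, and that of TP53INP1 and SERTAD1 was not called. Of the genes with a larger TMZ effect in SurvNESmut-GFP, CMBL and PHLDA3 had a lower untreated level there (-0.26 and -0.48) and TNFAIP8 a higher one (0.38). The untreated libraries enter both values, and the part of this starting level in the difference was not tested.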

How the results depend on the processing

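Of the members called for the TMZ effect in Surv-GFP, 25 of 27 stayed called under every alternative that tested them (exceptions MDM4 and SUSD6). For that in SurvNESmut-GFP it was 18 of 21 (BTG1, MDM4, TRIAP1), and for the difference 17 of 19 (TNFAIP8, TP53INP1). For the clone difference it was 23 of 29 without TMZ (BTG2, GLS2, NINJ1, SUSD6, TNFAIP8, XPC) and 25 of 28 with TMZ (DDB2, RPS27L, XPC). GLS2 is among the 25 with TMZ, though the filter of 1 CPM left it untested. The number of members that fell in SurvNESmut-GFP was 2 and became 1 with DESeq2 and 1 with a robust prior, since BTG1 was no longer called. The cause was not tested. Signs that turned with another scaling, filter or tool belonged to values near 0 that had not been called. For the difference of TMZ effects, CCNG1 had 0.0092 with RLE size factors, 0.048 with library sizes alone, 0.0099 without a filter, 0.038 with a filter of 1 CPM and 0.0098 with DESeq2. MDM4 had 0.019 and 0.0094, and SUSD6 0.021 and 0.011, with library sizes alone and with a filter of 1 CPM. For the TMZ effect in Surv-GFP, NINJ1 had -0.012, -0.0093, -0.012, -0.032 and -0.012 with the settings named for CCNG1 in the same order, and TP53I3 -0.010 with a filter of 1 CPM. When 1 library was left out, signs of values that had not been called turned, for the TMZ effect in Surv-GFP in NINJ1 -0.13 to 0.17, TOB1 -0.051 to 0.17 and TP53I3 -0.10 to 0.13. For that in SurvNESmut-GFP they were PPM1D -0.061 to 0.084, TNFAIP8 -0.17 to 0.19, TOB1 -0.46 to 0.065 and TP53INP1 -0.095 to 0.19. For the difference of TMZ effects they were BTG2 -0.25 to 0.28, CCNG1 -0.18 to 0.15, MDM4 -0.12 to 0.038, NINJ1 -0.044 to 0.26, SUSD6 -0.17 to 0.10, TOB1 -0.51 to 0.0099 and ZMAT3 -0.18 to 0.046. For the clone difference with TMZ they were PPM1D -0.063 to 0.057. For the clone difference without TMZ they were SERTAD1 -0.10 to 0.044.

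Deviations of equal replicate letters correlated between groups at -0.119 to 0.106. These deviations also hold counting error, so they cannot decide whether equal letters were paired. With a replicate block the members called higher and lower numbered 24 and 3 (Surv-GFP), 19 and 2 (SurvNESmut-GFP), 3 and 16 for the difference, 17 and 11 without TMZ and 12 and 16 with TMZ. The block ended the calls of XPC without TMZ (adjusted p = 0.0533) and DDB2 with TMZ (adjusted p = 0.056), and called TP53I3 with TMZ (adjusted p = 0.0442). With 2 libraries a group, small differences such as those of MDM4 and XPC rested on the spread of few libraries, and a value that missed the threshold does not show that the gene did not change.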

Other observations

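Genes that act upstream in the pathway were listed separately. Of 23 listed p53 regulators, 21 were tested, 6 rose and 5 fell upon TMZ in Surv-GFP (28.6% and 23.8%), and 3 rose and 5 fell in SurvNESmut-GFP (14.3% and 23.8%), beside 30.1% and 28.9% of all tested genes in Surv-GFP and 18.6% and 19.1% in SurvNESmut-GFP. The 6 that rose in Surv-GFP became 4 with RLE size factors, library sizes alone, no filter, a filter of 1 CPM or DESeq2, and 3 without Surv-GFP TMZ replicate b. RCHY1, the ubiquitin ligase PIRH2, rose 1.69-fold in Surv-GFP and 1.49-fold in SurvNESmut-GFP. CREBBP, an acetyltransferase and p53 coactivator, had a log2 fold change of 0.51 ± 0.057 (adjusted p = 9.9e-07) in Surv-GFP and of 0.0077 ± 0.058 (adjusted p = 0.934) in SurvNESmut-GFP. TP73, a transcription factor of the p53 family, fell 1.75-fold in Surv-GFP and had a log2 fold change of -0.060 ± 0.089 (adjusted p = 0.637) in SurvNESmut-GFP, with a difference of 0.75 ± 0.13 (adjusted p = 0.000326). The checkpoint kinase gene CHEK1 fell 1.34-fold in Surv-GFP, with a difference of 0.41 ± 0.087 (adjusted p = 0.00156). USP7, which removes ubiquitin from MDM2 and p53, fell 1.27-fold and 1.20-fold. ATR (0.28 ± 0.061, adjusted p = 0.00173) and TRIM24 (0.38 ± 0.051, adjusted p = 2.31e-05) rose in SurvNESmut-GFP, and KAT5 fell there (-0.41 ± 0.080, adjusted p = 0.000643). HIPK2, a kinase that phosphorylates p53, had values near the threshold in Surv-GFP (0.14 ± 0.059, adjusted p = 0.0481) and in SurvNESmut-GFP (-0.19 ± 0.059, adjusted p = 0.0174), with a difference of -0.33 ± 0.083 (adjusted p = 0.00498).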
